A study of Mus musculus with 3 samples.

Results

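RAW macrophages that received *L. rhamnosus* CRL1505 before lipopolysaccharide (CRL1505 + LPS) were compared with RAW macrophages that received LPS alone, across all genes of a mouse expression microarray. RAW 264.7 is an established mouse macrophage line, and LPS is the cell wall component of Gram-negative bacteria that Toll-like receptor 4 (TLR4) senses. The comparison uses 2 of the 3 arrays analysed here, 1 array for each condition. In the CRL1505 + LPS condition the lactobacilli were present for 24 h at 50000000 cells/mL. LPS was used at 50 ng/mL in every condition. The text deposited with the series gives 12 h of LPS, while the descriptions of the single samples give 3 h, so the length of stimulation is not settled here. The third array, of macrophages given *L. plantarum* CRL1506 and LPS (CRL1506 + LPS), is used for orientation only, and arrays of cells without LPS were not analysed here.

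TLR4 signals through MyD88 to NF-κB and AP-1, which switch on inflammatory cytokine genes, and through TRIF to interferon regulatory factors, which switch on interferon-β. Secreted interferon then acts back on the cell through its receptor and raises a large group of interferon-stimulated genes, many of which carry the interferon-stimulated response element (ISRE) in their promoter. RAW cells proliferate, so they also transcribe the genes of DNA replication, mitosis and histone supply, which are controlled through E2F, DREAM and CCAAT-binding factors and are lowered when macrophages are activated.

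Since each condition has a single array, no difference could be set against a spread between replicates, and none was tested. Slide and scan run differed between the LPS and CRL1505 + LPS arrays, so slide and strain cannot be told apart. The labels name no separate culture or RNA pool behind an array. The LPS array had 54.5% of its 59305 gene spots well above background and a signal of 743 at the 75th percentile, and the CRL1505 + LPS array 48.5% and 517. Values are log2 signals after subtracting the 75th percentile of the array, so that 0 is that percentile, and a log2 ratio is the value in CRL1505 + LPS minus the value in LPS alone. The median SD of the log2 ratio was 0.05 over repeated spots of a probe (275 probes) and 0.23 between different probes of a gene (5514 genes), which describe the array and not the spread between cultures.

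Promoters are shown for 7 genes that stand for the groups described below, namely the interferon-stimulated *Isg15* and *Gbp2*, the cytokine gene *Il6*, the cell cycle genes *Plk1* and *Mcm5*, and the neighbouring *Sprr2d* and *Sprr2e*, of which *Sprr2d* had the highest ratio of the comparison. Each runs from 250 bases before to 50 bases after the gene start in RefSeq (GRCm38.p6) and is written 5′ to 3′ on the strand of the gene. The regions are chr4:156200769-156201068 (minus strand) for *Isg15* and, on the plus strand, chr3:142620413-142620712 for *Gbp2*, chr5:30012864-30013163 for *Il6*, chr7:122159185-122159484 for *Plk1*, chr8:75109259-75109558 for *Mcm5*, chr3:92338890-92339189 for *Sprr2d* and chr3:92351893-92352192 for *Sprr2e*. Capitals mark matches on either strand to the ISRE in *Isg15*, the ISRE and then the NF-κB site in *Gbp2*, the AP-1 and then the NF-κB site in *Il6*, the CCAAT box and then the CHR in *Plk1*, the E2F site and then the CCAAT boxes in *Mcm5*, and the AP-1 site in *Sprr2d* and *Sprr2e*.
Isg15: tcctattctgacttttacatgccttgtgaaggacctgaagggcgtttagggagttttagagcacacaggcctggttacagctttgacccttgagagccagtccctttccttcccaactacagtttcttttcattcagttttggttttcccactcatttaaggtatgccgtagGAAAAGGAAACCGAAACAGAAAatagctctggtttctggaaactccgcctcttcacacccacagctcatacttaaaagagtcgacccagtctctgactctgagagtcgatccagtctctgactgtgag
Gbp2: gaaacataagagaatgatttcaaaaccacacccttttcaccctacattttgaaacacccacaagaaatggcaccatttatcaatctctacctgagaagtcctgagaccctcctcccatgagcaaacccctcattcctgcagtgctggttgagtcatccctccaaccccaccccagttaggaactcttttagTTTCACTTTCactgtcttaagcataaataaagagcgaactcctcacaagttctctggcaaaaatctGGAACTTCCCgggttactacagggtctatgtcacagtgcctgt
Il6: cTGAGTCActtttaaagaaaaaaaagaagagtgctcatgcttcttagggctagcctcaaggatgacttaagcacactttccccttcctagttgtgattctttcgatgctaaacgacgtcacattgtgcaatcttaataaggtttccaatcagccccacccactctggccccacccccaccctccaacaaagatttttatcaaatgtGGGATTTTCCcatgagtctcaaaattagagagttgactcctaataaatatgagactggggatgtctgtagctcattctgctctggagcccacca
Plk1: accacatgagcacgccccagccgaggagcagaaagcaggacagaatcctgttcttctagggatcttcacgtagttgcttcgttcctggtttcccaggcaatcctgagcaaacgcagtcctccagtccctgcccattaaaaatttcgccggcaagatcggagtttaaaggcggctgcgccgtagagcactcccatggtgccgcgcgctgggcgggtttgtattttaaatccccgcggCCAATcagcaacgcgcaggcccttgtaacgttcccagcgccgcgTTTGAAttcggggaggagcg
Mcm5: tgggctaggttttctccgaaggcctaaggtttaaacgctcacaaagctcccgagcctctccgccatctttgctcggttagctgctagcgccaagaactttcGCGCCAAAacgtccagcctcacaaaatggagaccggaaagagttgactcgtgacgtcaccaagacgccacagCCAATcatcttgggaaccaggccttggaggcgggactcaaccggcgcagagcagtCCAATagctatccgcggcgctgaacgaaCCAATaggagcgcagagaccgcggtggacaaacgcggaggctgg
Sprr2d: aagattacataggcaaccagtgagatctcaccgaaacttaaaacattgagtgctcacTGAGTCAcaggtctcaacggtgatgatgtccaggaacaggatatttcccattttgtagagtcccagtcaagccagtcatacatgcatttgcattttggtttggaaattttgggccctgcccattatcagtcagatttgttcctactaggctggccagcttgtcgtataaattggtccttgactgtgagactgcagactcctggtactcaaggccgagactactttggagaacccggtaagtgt
Sprr2e: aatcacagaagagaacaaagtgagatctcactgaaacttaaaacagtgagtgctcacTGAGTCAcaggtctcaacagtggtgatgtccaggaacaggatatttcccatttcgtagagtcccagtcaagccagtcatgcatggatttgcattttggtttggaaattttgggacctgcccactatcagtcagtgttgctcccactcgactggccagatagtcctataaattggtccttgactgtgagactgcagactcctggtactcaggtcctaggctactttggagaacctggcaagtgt
The capitals in *Isg15* are overlapping ISRE matches that begin -78, -72 and -66 bases from the gene start. In *Gbp2* the ISRE begins at -59. In *Il6* the NF-κB site begins at -44. The promoters of *Sprr2d* and *Sprr2e* were identical at 264 of 300 positions, and the AP-1 site lay at -193 in both. A match is a description of the letters, and no binding was measured.

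Genes differed from LPS alone in both directions in CRL1505 + LPS. Of 26840 genes with a symbol, 15620 were compared, of which 13246 were well above background on both arrays, 707 on the CRL1505 + LPS array only and 1667 on the LPS array only. At least 2-fold higher were 1555 genes (9.96%) and at least 2-fold lower were 1312 genes (8.4%), together 18.4% of the genes compared. For 516 and 444 of these, the dimmer side was not well above background. Its value was then set to the lowest signal well above background on that array, or to its own if that was higher, and the ratio is a bound. In CRL1506 + LPS against the same LPS array, 2-fold was reached by 5.68% of genes upwards and by 3.53% downwards, together 9.21%. The median log2 ratio of all genes compared was 0.01. Shifting arrays by the median added 0.30 to each log2 ratio measured on both arrays, and scaling to the spike-in probes added -0.54. A higher gene therefore needs a ratio of 1.54 or more to stay past 2-fold under spike-in scaling, and a lower gene needs -1.30 or less under the median shift. Of the genes past 2-fold, 54.2% were higher, but 76.2% after the median shift, 18.8% after spike-in scaling and 37.9% without a filter on dim probes. For this reason the counts for most lists of genes are given with their range over the scalings, beside the median of the list less that of all genes compared. A share of a list near 9.96% higher or 8.4% lower is that of all genes.

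**Figure D1:**
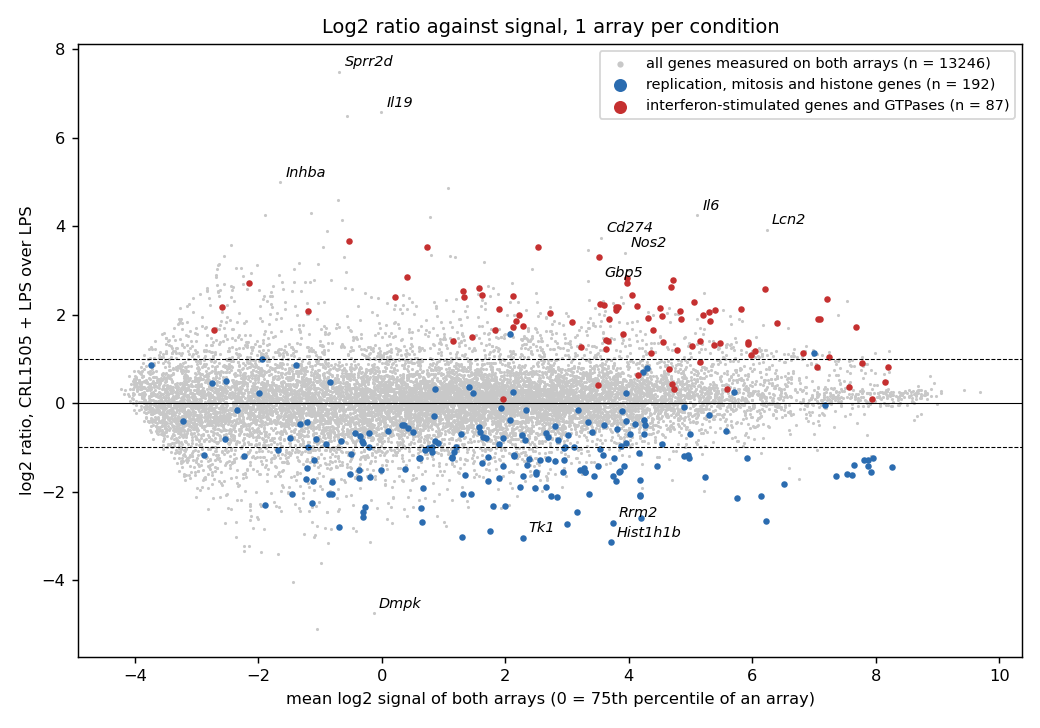
Log2 ratio of CRL1505 + LPS over LPS (y axis) against the mean log2 signal of both arrays (x axis) for the 13246 genes well above background on both, with interferon-stimulated genes and GTPases in red, replication, mitosis and histone genes in blue, and dashed lines at 2-fold. The red points lie above 0 over the whole range of signal and most of the blue points lie below it.

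Interferon-stimulated genes were higher as a group. All 71 on the list were compared and lay above the median of all genes, 57 of them (80.3%) were at least 2-fold higher and none was at least 2-fold lower. Their median log2 ratio was 1.73, which is 1.72 above that of all genes and stayed between 1.58 and 1.71 above it under 7 other scalings and normalizations. The number past 2-fold ranged from 40 to 62. The list was written with earlier results of these data known, so its counts describe the list and are no test. *Ch25h*, also known as an interferon-stimulated gene, was lower and is not on the list. It is given below with sterol synthesis. *Rsad2*, which codes for the antiviral enzyme viperin, had a log2 signal of 6.04 on the LPS array and 8.40 on the CRL1505 + LPS array, a log2 ratio of 2.36. *Isg15*, a ubiquitin-like modifier of proteins, went from 6.82 to 8.54, a log2 ratio of 1.72. *Usp18*, the protease that removes ISG15, went from 4.75 to 6.88, a log2 ratio of 2.13. The modifier and the enzyme that takes it off were thus both higher. *Ifit1* and *Ifit2* code for proteins that bind foreign RNA. *Ifit1* went from 4.28 to 6.33, a log2 ratio of 2.05. *Ifit2* went from 2.56 to 5.39, a log2 ratio of 2.82. *Mx1*, a dynamin-like GTPase that blocks viruses, went from 3.89 to 5.79, a log2 ratio of 1.90. Any ratio past 2-fold exceeds the median spread between probes of a gene, which does not describe the spread between cultures. *Isg20*, a nuclease, had a log2 ratio of 2.77, and *Ifi205*, of the DNA-sensing p200 family, one of 3.53 with signals of -1.03 and 2.50.

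*Irf7*, the factor that amplifies interferon production, went from 6.14 to 8.04, a log2 ratio of 1.90. *Batf2*, an AP-1 family factor that interferon induces, went from 2.57 to 4.65, a log2 ratio of 2.08. *Oasl1*, which limits translation of *Irf7*, had a lower ratio than these, 1.09, which was 0.55 after spike-in scaling.

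The guanylate-binding proteins and immunity-related GTPases, which interferon-γ induces most strongly and which attack the vacuoles of intracellular pathogens, were higher as well. All 17 were at least 2-fold higher, with a median log2 ratio of 2.29, and from 14 to 17 passed 2-fold over the 7 scalings. *Gbp2* (probe at chr3:142300719-142300778 in the files' build, mm9) went from 3.43 to 5.57, a log2 ratio of 2.15. *Gbp5*, which promotes NLRP3 inflammasome assembly, went from 1.87 to 5.17, a log2 ratio of 3.31, although its 2 probes gave 1.08 and 3.31. *Igtp*, also called Irgm3, went from 3.91 to 6.2, a log2 ratio of 2.29. The same 3 genes had log2 ratios of -0.31, 0.16 and 0.02 in CRL1506 + LPS, in the same order. *Irgm1* had the lowest ratio of the list, 1.2, and *Gbp11* the highest, 3.67. Guanylate-binding protein genes are close copies of each other, and how far a probe reads its neighbours was not tested.

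For orientation, in CRL1506 + LPS against the same LPS array where 5.68% of all genes were at least 2-fold higher, the median was 0.46 for the interferon-stimulated genes, of which 12 passed that threshold, and 0.42 for the GTPases, of which 2 were. The ratio was larger in CRL1505 + LPS for 69 of 70 interferon-stimulated genes and for 17 of 17 GTPases. Because both ratios share the LPS array, this is a comparison of the CRL1505 + LPS array with the CRL1506 + LPS array, which lay on different slides, and the difference was not tested.

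**Figure D2:**
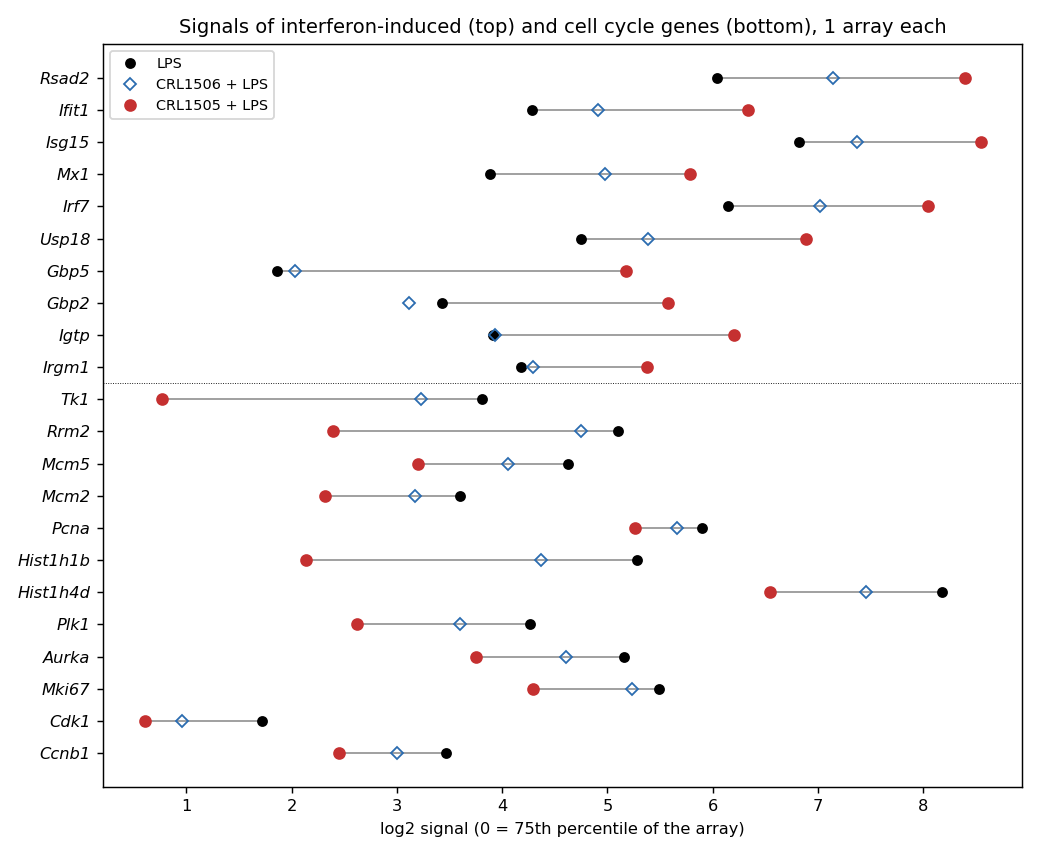
Log2 signal (x axis, 0 is the 75th percentile of an array) of 10 interferon-induced genes above the dotted line and 12 cell cycle and histone genes below it, in LPS (black), CRL1505 + LPS (red) and CRL1506 + LPS (open blue), 1 array each, with a line from LPS to CRL1505 + LPS. Red lies right of black for every gene above the line and left of black for every gene below it.

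Genes of antigen presentation by MHC class I, which shows peptides from inside the cell to CD8 T cells, were moderately higher. Of 31 compared, 10 were at least 2-fold higher and none lower, with a median 0.74 above all genes and 6 to 18 higher over the scalings. *Nlrc5*, the transactivator of MHC class I genes, went from 0.91 to 3.94, a log2 ratio of 3.03, with 0.95 and 3.03 over its 2 probes. *Tap1*, a chain of the peptide transporter, went from 3.36 to 5.27, a log2 ratio of 1.92. *B2m*, the light chain of every class I molecule, had a log2 ratio of 0.85 (0.31 to 1.14 over the scalings), with -0.08 and 0.85 over its 2 probes. Under the main scaling the regulator and the transporter were past 2-fold while the light chain was not. The non-classical genes *H2-T24*, *H2-T9*, *H2-T22* and *H2-T10* had log2 ratios of 2.39, 1.74, 1.74 and 1.71, and such H2-T genes share long stretches of sequence. *Psmb8*, an immunoproteasome subunit, had a log2 ratio of 0.43, which was -0.11 after spike-in scaling.

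Of 10 MHC class II genes, which present peptides to CD4 T cells, 1 was higher and 2 were lower (0 to 4), with a median -0.14 relative to all genes (-0.17 to 0.07). The class II α chain gene *H2-Aa* was not well above background on either array. The β chain gene *H2-Ab1* was on both, with a log2 ratio of 0.09 (-0.45 to 0.55 over the scalings). *Cd74*, the invariant chain, had a log2 ratio of 0.38 (-0.16 to 0.67 over the scalings). The chaperone gene *H2-DMa* went from -1.23 to -2.51, a log2 ratio of -1.29. Of its relatives, *H2-DMb1* had -2.05 as a bound and *H2-DMb2*, the 1 higher gene, had 4.08. With uneven spots left out no class II gene was higher, and *H2-DMb2* is named after its value was seen.

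Among costimulatory and checkpoint molecules, 8 of 19 were at least 2-fold higher (4 to 9 over the scalings) and 3 lower (2 to 5), with a median 0.38 above all genes (0.24 to 0.64). *Cd274*, which codes for the T cell inhibitor PD-L1, went from 1.69 to 5.43, a log2 ratio of 3.74, against 1.48 in CRL1506 + LPS. *Slamf7*, a self-ligand receptor of immune cells, went from -3.30 to 0.99, a log2 ratio of 4.29. *Cd40*, the receptor for T cell help, went from 3.14 to 4.64, a log2 ratio of 1.5. The inhibitory ligand gene *Cd274* and the receptor gene *Cd40* were thus both among the higher genes. *Cd86*, a ligand of CD28, had a log2 ratio of 1.09 on the probe used (0.56 to 1.39 over the scalings) and of 1.09 to 1.60 over 4 probes. For *Cd80* the 4 probes ranged from -0.33 to 5.30, so no direction is given. *Cd83*, a marker of mature antigen-presenting cells, went from 0.71 to -2.45, a log2 ratio of -3.15. It was -3.05 in CRL1506 + LPS, against the same LPS value. *Havcr2*, which codes for the checkpoint receptor TIM-3, was well above background on the LPS array only, at -0.69. Under the main scaling it was at least 10.8-fold lower, a log2 ratio of -3.43 as a bound (-3.97 to -1.94 over the scalings).

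Secreted interleukins and colony-stimulating factors were higher as a group, with a median 0.91 above all genes (0.64 to 1.19 over the scalings). Of 24 compared, 11 were at least 2-fold higher (8 to 14) and 1 lower (0 to 2). *Il6* (probe at chr5:30346367-30346426, mm9) went from 2.98 to 7.23, a log2 ratio of 4.25. *Il19*, an IL-10 family cytokine, went from -3.30 to 3.27, a log2 ratio of 6.57. *Il10*, which restrains macrophages, went from -2.06 to 0.91, a log2 ratio of 2.97. Inflammatory and restraining cytokines of this group were both higher. *Il1rn*, the secreted antagonist of IL-1, went from 2.50 to 5.51, a log2 ratio of 3.02, and *Il1a*, the agonist that it blocks, went from -0.56 to 2.77, a log2 ratio of 3.33. *Csf3*, which drives neutrophil production, had a log2 ratio of 3.53, *Osm*, of the IL-6 family, one of 2.02, and *Il15*, which sustains NK cells, one of 1.67 with 0.77 to 1.92 over 3 probes. *Il12b*, the shared subunit of IL-12 and IL-23, had a log2 ratio of -0.70 (-1.23 to -0.40 over the scalings). *Tnf* had a log2 ratio of 0.15 (-0.39 to 0.45), so no direction is given.

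Of 24 chemokines, 5 were at least 2-fold higher (2 to 7 over the scalings) and 3 lower (2 to 7), 4 of these 8 on a bound, with a median 0.43 above all genes (0.27 to 0.43). *Ccl7*, a monocyte attractant, went from 6.39 to 8.38, a log2 ratio of 2.0. *Ccl5* went from 7.62 to 8.80, a log2 ratio of 1.19, which was 0.65 after spike-in scaling. *Ccl24*, an eosinophil attractant, was at 0.10 on the LPS array and not well above background on the CRL1505 + LPS array. Under the main scaling it was at least 18.7-fold lower, a log2 ratio of -4.22 as a bound (-4.76 to -2.84 over the scalings). In CRL1506 + LPS, *Ccl7*, *Ccl5* and *Ccl24* had log2 ratios of 0.84, 0.17 and -3.82. Of 13 chemokine receptors compared, none was higher (0 to 2) and 4 were lower (2 to 5), 3 of them on a bound, with a median -0.29 relative to all genes (-0.41 to -0.15). *Cx3cr1*, the fractalkine receptor of resident macrophages, was at 1.71 on the LPS array, and not well above background in CRL1505 + LPS. On the probe used and under the main scaling it was at least 57.1-fold lower. As a log2 ratio this bound was -5.84 (-6.37 to -4.22 over the scalings). *Cxcr3* went from -0.62 to -3.85, a log2 ratio of -3.23. *Cx3cl1*, the ligand of CX3CR1, went from -2.88 to -1.56, a log2 ratio of 1.32 (0.78 to 1.65 over the scalings).

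**Figure D3:**
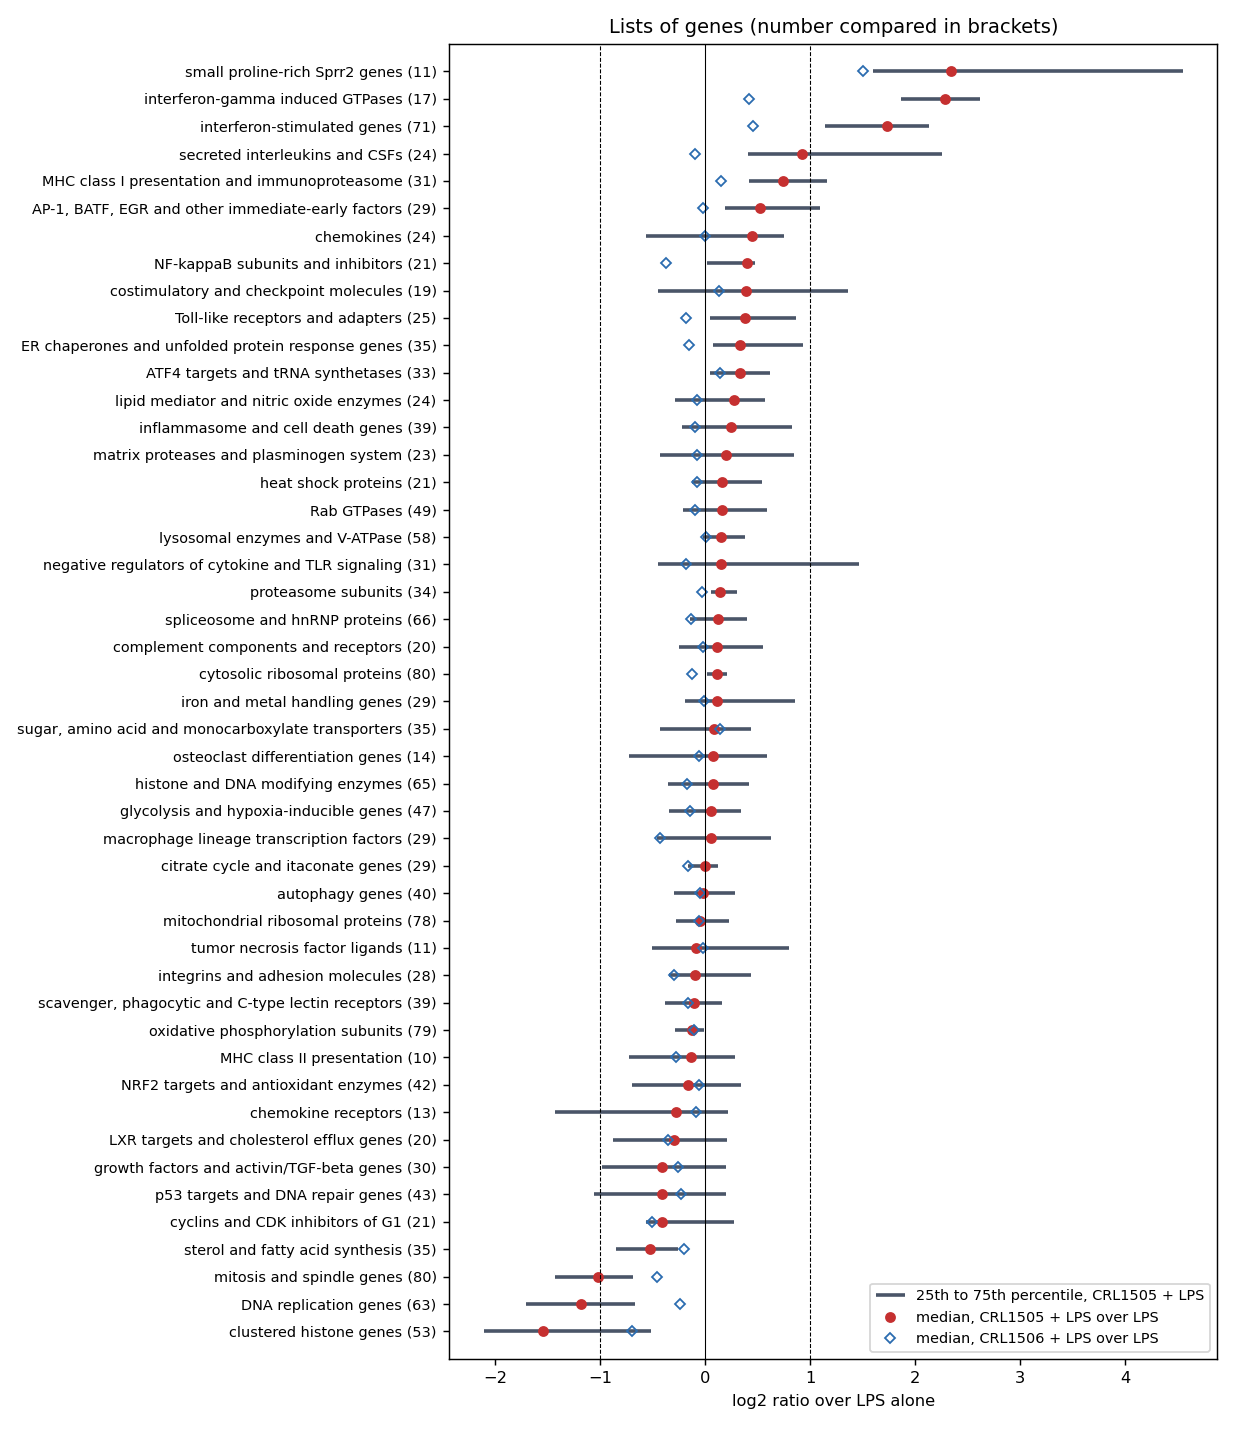
Median log2 ratio of CRL1505 + LPS over LPS (red) with bars from the 25th to the 75th percentile of the members, and the median for CRL1506 + LPS (open blue), for the 47 lists of genes, with the number compared in brackets and dashed lines at 2-fold. The GTPases and interferon-stimulated genes lie at 2.29 and 1.73 and the replication, mitosis and histone lists between -1.02 and -1.55, while the lists of ribosomal, proteasome and oxidative phosphorylation genes lie near 0.

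Of 25 Toll-like and related receptors and adapters, which sense microbes and relay the signal, 5 were at least 2-fold higher (2 to 9 over the scalings) and 2 lower (1 to 2), with a median 0.37 above all genes (0.21 to 0.34). *Tlr4* itself had a log2 ratio of -0.06 (-0.60 to 0.23 over the scalings), *Cd14*, its coreceptor, 0.15 (-0.39 to 0.44) and *Myd88*, the shared adapter, 0.85. *Tlr2*, which senses lipoproteins of bacteria, went from 6.70 to 5.57, a log2 ratio of -1.13. *Tlr13*, a sensor of bacterial ribosomal RNA, went from 3.85 to 1.97, a log2 ratio of -1.89. *Tlr3*, a sensor of double-stranded RNA, went from -1.16 to 0.34, a log2 ratio of 1.49. *Nod1*, a cytosolic sensor of peptidoglycan, went from -1.55 to 0.17, a log2 ratio of 1.72. Sensors were therefore found on both sides. Of 21 NF-κB subunits and inhibitors, 1 was at least 2-fold higher (0 to 4) and none lower (0 to 2), with a median 0.39 above all genes (0.24 to 0.38). *Tnfaip3*, which codes for the inhibitor A20, was the higher one, with a log2 ratio of 1.11 on a spot of uneven brightness (0.58 after spike-in scaling). *Nfkbia*, which codes for IκBα, had 0.40 (-0.14 to 0.69) and *Relb* -0.68 (-1.22 to -0.38).

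Of 31 negative regulators of cytokine and TLR signaling, 12 were at least 2-fold higher (7 to 12 over the scalings) and 5 lower (3 to 7), with a median 0.14 above all genes (0.05 to 0.14). *Socs1* went from 1.80 to 3.34, a log2 ratio of 1.54. *Socs3* went from 5.33 to 6.81, a log2 ratio of 1.48, which was 0.95 after spike-in scaling. Both code for proteins that block JAK kinases. *Dusp1*, a phosphatase that switches off p38, went from 2.75 to 4.82, a log2 ratio of 2.06. *Dusp2* went from 3.80 to 5.80, a log2 ratio of 2.0. *Irak3*, an inactive kinase that halts TLR signaling, went from 1.66 to 3.34, a log2 ratio of 1.68. *Zfp36*, which codes for the mRNA-decay protein tristetraprolin, had a log2 ratio of 1.36 (0.82 to 1.65 over the scalings). *Zc3h12a* had -0.21 (-0.74 to 0.09), and *Il1r2*, named after its value was seen, was the lowest of the list at -4.03. Of the 31 regulators, 17 had a log2 ratio above 0 and 14 below it, so the list had no common direction. In CRL1506 + LPS, *Socs3*, *Dusp2* and *Zfp36* had log2 ratios of -0.49, -0.35 and -0.11, while *Socs1*, *Dusp1* and *Irak3* had 0.30, 0.72 and 0.75.

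Of 29 immediate-early factors of the AP-1, BATF and EGR families and the like, 10 were at least 2-fold higher (4 to 10 over the scalings) and 1 lower (0 to 2), with a median 0.51 above all genes (0.41 to 0.50). *Egr1* went from 0.66 to 3.12, a log2 ratio of 2.46. *Nr4a1*, a nuclear receptor that stimuli induce rapidly, went from 0.54 to 2.80, a log2 ratio of 2.26. *Fos* went from 0.40 to 2.16, a log2 ratio of 1.76. Its usual partner *Jun* was not among the higher genes, with a log2 ratio of -0.56 (-1.09 to -0.26), and *Atf3*, a repressor of cytokine genes, had 0.34 (-0.19 to 0.64).

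Of 29 factors that set macrophage identity, 5 were at least 2-fold higher (2 to 6 over the scalings) and 5 lower (4 to 7), with a median 0.04 above all genes (0.00 to 0.09). *Maf*, a factor of resident macrophages, went from 1.69 to 3.62, a log2 ratio of 1.93 with 0.76 to 1.93 over 3 probes. *Mef2c* went from 1.40 to -1.22, a log2 ratio of -2.62. *Cebpa*, which directs myeloid development, went from -0.56 to -2.88, a log2 ratio of -2.31. *Spi1*, which codes for PU.1, had -0.38 and *Irf8* -0.29 (-0.83 to 0.01), both under 2-fold. Thus *Cebpa* was lower while the master factor PU.1 was not past the threshold. All 15 macrophage markers were well above background on both arrays, with 2 at least 2-fold higher and 1 lower. *Csf1r*, the M-CSF receptor, went from 7.34 to 5.87, a log2 ratio of -1.47. *Adgre1*, which codes for F4/80, went from 2.61 to 4.88, a log2 ratio of 2.27 with 1.25 and 2.27 over its 2 probes. *Lyz2*, a lysozyme gene, had -0.01 (-0.54 to 0.29).

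Of 39 receptors for uptake, 5 were at least 2-fold higher (4 to 7 over the scalings) and 5 lower (3 to 9), with a median -0.11 relative to all genes (-0.11 to -0.06). *Marco*, a scavenger receptor for bacteria, went from 6.38 to 8.68, a log2 ratio of 2.31. *Fcgr1*, the high-affinity IgG receptor, went from 2.67 to 5.07, a log2 ratio of 2.40, and *Fcgr4*, another activating IgG receptor, from 3.75 to 5.76, a log2 ratio of 2.02. *Clec7a*, which codes for the β-glucan receptor Dectin-1, went from 0.06 to -1.73, a log2 ratio of -1.79, with -1.79 and -0.87 over its 2 probes. *Gas6*, a bridge to dying cells, went from -1.02 to -3.70, a log2 ratio of -2.68. In CRL1506 + LPS, *Marco*, *Fcgr1*, *Fcgr4*, *Clec7a* and *Gas6* had 1.01, 0.95, 0.62, -1.53 and -1.40. *Clec4e*, which codes for Mincle, was at 7.25 on both arrays.

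Of 24 genes for the synthesis of lipid mediators and nitric oxide, 4 were at least 2-fold higher (3 to 5 over the scalings) and 2 lower (2 to 5), with a median 0.26 above all genes (0.13 to 0.25). *Nos2*, the inducible nitric oxide synthase (probe at chr11:78773567-78773626, mm9), went from 2.24 to 5.64, a log2 ratio of 3.40 (2.86 to 3.69 over the scalings). *Slc7a2*, the arginine transporter that feeds it, went from -0.13 to 2.2, a log2 ratio of 2.33. *Gch1*, which starts the synthesis of its cofactor tetrahydrobiopterin, went from 4.98 to 6.46, a log2 ratio of 1.48 (0.94 after spike-in scaling). In CRL1506 + LPS these 3 genes had log2 ratios of -0.70, 0.24 and 0.26. *Arg1*, which competes for arginine, was not well above background on either array. Of the prostaglandin and leukotriene enzymes, *Ptgs2* went from 3.37 to 5.00, a log2 ratio of 1.63, while its constitutive relative *Ptgs1* went from 3.69 to 2.23, a log2 ratio of -1.46. *Alox5*, the first enzyme of leukotriene synthesis, went from 1.25 to -0.89, a log2 ratio of -2.14. In CRL1506 + LPS, *Ptgs2*, *Ptgs1* and *Alox5* had -0.39, -1.05 and -2.23. *Acod1*, which makes itaconate, had a log2 ratio of 0.46 (-0.08 to 0.76).

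Of 39 inflammasome and cell death genes, 8 were at least 2-fold higher and 4 lower. Under the median shift 11 were higher and 2 lower, whereas spike-in scaling left 1 higher and 7 lower. The median of the list was 0.23 above all genes (0.10 to 0.22 over the scalings). *Mlkl*, the effector of necroptosis, went from 1.69 to 3.16, a log2 ratio of 1.47. *Casp4*, which codes for the LPS-sensing caspase-11, went from 5.04 to 6.05, a log2 ratio of 1.01 that was 0.48 after spike-in scaling. *Nlrc4*, the platform of the flagellin sensor, went from -1.67 to -3.43, a log2 ratio of -1.76. *Nlrp3* had -0.33 (-0.87 to -0.04). Of 20 complement genes, 3 were higher (2 to 4) and 2 lower (0 to 5), with a median 0.10 above all genes (0.05 to 0.19). *Cfb*, factor B of the alternative pathway, went from -0.71 to 1.12, a log2 ratio of 1.83, and *C3* from 6.23 to 7.52, a log2 ratio of 1.29 (0.75 after spike-in scaling).

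Genes of growth factor and TGF-β signaling were lower as a group, by a median of -0.42 relative to all genes (-0.50 to -0.25 over the scalings). Of 30 compared, 2 were at least 2-fold higher (1 to 3) and 7 lower (3 to 13). *Inhba*, the activin A subunit, stood against the group, from -4.15 to 0.84, a log2 ratio of 4.99, with 1.95 and 4.99 over its 2 probes. *Tgfbi*, a matrix protein that TGF-β induces, went from 3.00 to 0.63, a log2 ratio of -2.37. *Smad6* went from -1.26 to -3.44, a log2 ratio of -2.18. *Smad3*, the signal carrier of TGF-β and activin, had -1.25 (-1.79 to -0.96). In CRL1506 + LPS, *Inhba*, *Tgfbi*, *Smad6* and *Smad3* had 4.30, -0.86, -1.01 and -0.66. Among proteases, *Mmp13*, a collagenase, went from 2.69 to 4.87, a log2 ratio of 2.18, and *Plau*, the urokinase that activates plasmin, went from 2.16 to -0.39, a log2 ratio of -2.55.

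The small proline-rich Sprr2 genes, a cluster on chromosome 3 known from the cornified envelope of skin, held 2 of the 3 highest log2 ratios among the 15 genes named as highest. Of 11 compared, 10 were at least 2-fold higher (8 to 10 over the scalings), 5 of the calls being bounds. *Sprr2d* (probe at chr3:92144721-92144780, mm9) went from -4.43 to 3.05, a log2 ratio of 7.48. *Sprr2e* (probe at chr3:92157288-92157347, mm9) went from -3.81 to 2.68, a log2 ratio of 6.49. Both were also higher in CRL1506 + LPS, with log2 ratios of 4.89 and 3.69. The LPS signals were close to the background, and the smallest values over the 7 scalings were 5.87 and 4.94. The copies resemble each other, so a probe may read several of them. Other genes among the 15 highest were *Urah*, a urate pathway enzyme, with a log2 ratio of 4.86, *Cfap100*, a cilium gene, with 4.58, and *Lcn2*, which codes for the siderophore-binding lipocalin and went from 4.27 to 8.19, a log2 ratio of 3.92.

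Genes of DNA replication were lower. Of 63 compared, 34 were at least 2-fold lower (24 to 50 over the scalings) and 1 higher, with 57 below the median of all genes and a median -1.19 relative to all genes (-1.29 to -1.19). *Tk1*, thymidine kinase of S phase, went from 3.81 to 0.77, a log2 ratio of -3.04, with -3.11 to -2.89 over 3 probes. *Rrm2*, the regulated subunit of ribonucleotide reductase, went from 5.10 to 2.40, a log2 ratio of -2.70. *Ccne1*, the cyclin that starts S phase, went from 2.95 to 0.64, a log2 ratio of -2.32. Enzymes that supply nucleotides and the cyclin of S phase entry were thus among the lowest. *Mcm5*, a subunit of the replicative helicase (probe at chr8:77651350-77651410, mm9), went from 4.63 to 3.20, a log2 ratio of -1.43. *Mcm2*, of the same helicase, went from 3.60 to 2.32, a log2 ratio of -1.28. *Pcna*, the sliding clamp, had -0.64 and *Cdc45*, a helicase cofactor, -0.79, neither past 2-fold. *E2f8* went from 1.81 to -0.55, a log2 ratio of -2.37 on the probe used but -0.86 on another. Its relative *E2f7* had -2.80 on the probe used but -0.04 on another. The 1 higher gene was *Ung*, which removes uracil from DNA and was named after its value was seen. It had a log2 ratio of 1.14.

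Genes of mitosis and the spindle were lower. Of 80 compared, 79 lay below the median of all genes, 41 were at least 2-fold lower (24 to 73 over the scalings) and none was higher, with a median -1.03 relative to all genes (-1.07 to -0.93). *Plk1*, a kinase of mitotic entry (probe at chr7:129313220-129313279, mm9), went from 4.26 to 2.62, a log2 ratio of -1.64. *Aurka*, a kinase of the spindle poles, went from 5.16 to 3.75, a log2 ratio of -1.41. *Mki67*, the proliferation marker Ki-67, went from 5.49 to 4.29, a log2 ratio of -1.19. The ratios of these genes were smaller than those of *Tk1* and *Rrm2*. *Cdk1* had -1.11 and *Ccnb1*, its cyclin, -1.02, with -1.39 to -0.88 over 4 probes, and both were under 2-fold after the median shift. *Kif23*, a motor of cytokinesis, had -2.34 on the probe used, with -2.34 to -0.33 over 3 probes.

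Clustered histone genes were lower by the largest margin of these lists, with 37 of 53 at least 2-fold lower (32 to 40 over the scalings), 1 higher and a median -1.56 relative to all genes (-1.65 to -1.53). *Hist1h1b*, a linker histone (probe at chr13:21871923-21871982, mm9), went from 5.28 to 2.14, a log2 ratio of -3.14. *Hist1h2bf* went from 3.20 to 0.31, a log2 ratio of -2.88. *Hist1h4d* went from 8.17 to 6.54, a log2 ratio of -1.63. *Hist1h1c*, a linker histone made outside S phase as well, had -0.52 and -2.53 on its 2 probes. The exception was *Hist2h2aa1*, named after its value was seen, with 1.56. Histone genes are near copies of each other. Most of their mRNAs carry no poly(A) tail, while labelling kits of the type used here start from that tail, so the fraction of histone mRNA that was read is not known.

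In CRL1506 + LPS against the same LPS array the medians were -0.24 for replication, -0.45 for mitosis and -0.70 for histone genes, with 0, 1 and 4 genes at least 2-fold lower, where 3.53% of all genes were. Of the genes measured in both comparisons, the ratio was the more negative one in CRL1505 + LPS for all but 6 of 63, 12 of 80 and 12 of 52, respectively. The number of cells was not measured, so fewer dividing cells and less RNA of these genes per cell cannot be told apart.

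Of 21 regulators of G1, 2 were at least 2-fold lower (1 to 9 over the scalings) and none higher (0 to 2), with a median -0.43 relative to all genes (-0.50 to -0.24). *Cdkn2c*, an inhibitor of CDK4 and CDK6, went from -0.49 to -3.34, a log2 ratio of -2.85. *Cdkn1a*, which codes for p21, had 0.58 with -0.70 to 0.58 over 3 probes, so no direction is given. *Ccnd1* had -0.56 (-1.10 to -0.26). Among p53 targets and DNA repair genes, 11 of 43 were at least 2-fold lower (8 to 20) and 1 higher (1 to 4), with a median -0.42 relative to all genes (-0.46 to -0.38). *Chek1*, a checkpoint kinase of S phase, went from 0.71 to -0.94, a log2 ratio of -1.65, and *Msh6*, a mismatch repair protein, from 3.47 to 1.90, a log2 ratio of -1.57. *Sesn1*, a p53 target, went from 0.09 to -2.24, a log2 ratio of -2.33. *Mdm2*, the feedback inhibitor of p53, had 0.61. Of enzymes that modify histones and DNA, *Dnmt1*, the maintenance DNA methyltransferase, went from 0.84 to -0.66, a log2 ratio of -1.5. *Ezh2*, which methylates histone H3, had -1.09, with -1.35 to -1.09 over 5 probes. *Setdb2*, a methyltransferase that interferon induces, went from 1.25 to 3.12, a log2 ratio of 1.87 with 0.39 to 2.08 over 3 probes, and *Kdm5b*, a demethylase, from -0.95 to 0.86, a log2 ratio of 1.80.

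Together, the 88 genes of both interferon lists held 74 that were at least 2-fold higher and none lower, and the 196 replication, mitosis and histone genes held 112 that were lower and 2 higher. These made up a small part of all calls, since 1479 of the higher and 1200 of the lower genes lay in neither. The lists were written with earlier results of these data known, and *Ch25h*, which was lower, is on neither interferon list.

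**Figure D4:**
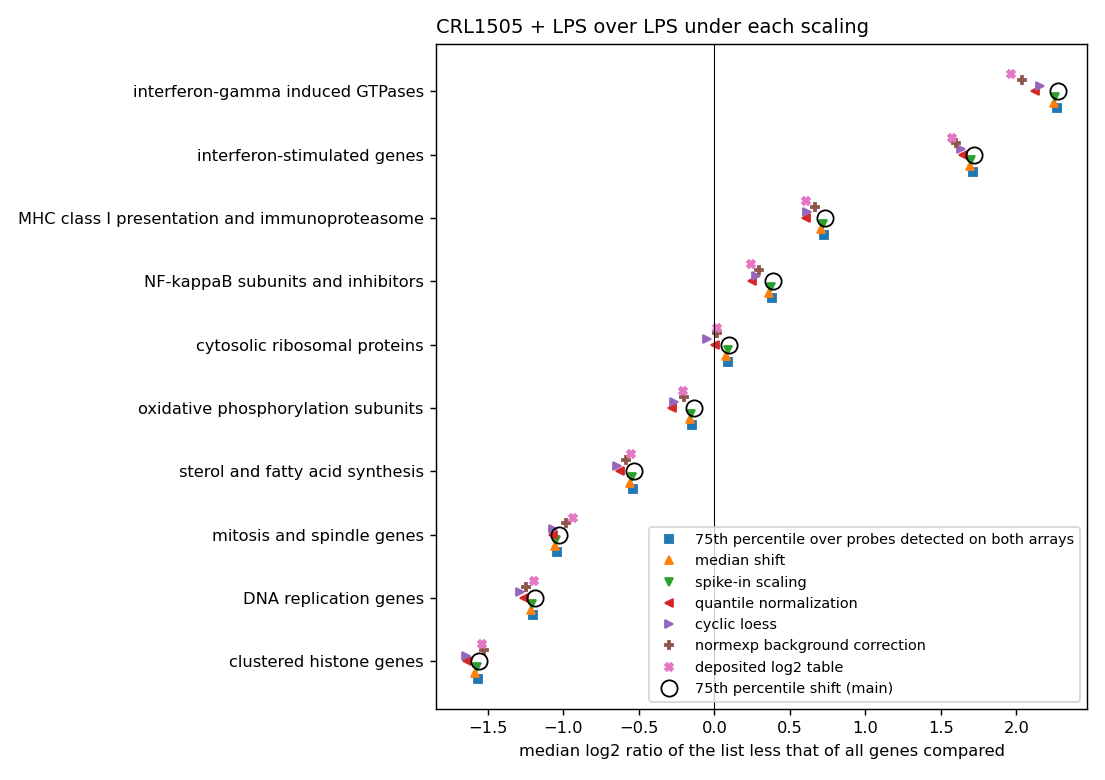
Median log2 ratio of 10 lists less that of all genes compared (x axis), under the 75th percentile shift (open circles) and 7 other scalings, normalizations or background corrections (symbols). The interferon lists stay right of 0 and the replication, mitosis and histone lists left of it, and the GTPases have the widest range of these, from 1.96 to 2.28.

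Of 47 glycolysis and hypoxia-inducible genes, 5 were at least 2-fold higher (3 to 7 over the scalings) and 3 lower (2 to 10), with a median 0.05 above all genes (-0.06 to 0.04). *Hk2*, which traps glucose in the cell, went from 1.90 to 3.54, a log2 ratio of 1.64. *Pfkfb3*, whose product stimulates phosphofructokinase, went from 1.54 to 3.57, a log2 ratio of 2.03, with 1.0 and 2.03 over its 2 probes. *Ldha* had -0.06 (-0.59 to 0.24) and *Slc2a1*, the glucose transporter, 0.40 (-0.13 to 0.70). *Ldhb*, a further lactate dehydrogenase, had -1.59 as a bound and *Pdk1*, a kinase that inhibits pyruvate dehydrogenase, -1.15 on the probe used and 0.04 on another. *Epas1*, which codes for HIF-2α, went from 3.58 to 1.72, a log2 ratio of -1.86. Of 79 subunits of oxidative phosphorylation, 1 was lower (0 to 10) and none higher, with a median -0.14 relative to all genes (-0.28 to -0.15), and of 29 citrate cycle and itaconate genes, 1 was lower, *Idh1*, with -1.05 (-0.75 after the median shift).

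Genes of sterol and fatty acid synthesis lay slightly below the rest, with 32 of 35 below the median of all genes, 6 at least 2-fold lower (4 to 20 over the scalings), none higher and a median -0.53 relative to all genes (-0.65 to -0.54). *Scd2*, a fatty acid desaturase, went from 5.57 to 3.84, a log2 ratio of -1.73. *Mvd*, of the mevalonate pathway, went from 1.40 to -0.29, a log2 ratio of -1.69. *Dhcr7*, the last enzyme of cholesterol synthesis, went from 0.41 to -1.28, a log2 ratio of -1.68. *Ch25h*, which makes 25-hydroxycholesterol and is known as an interferon-stimulated gene, was lower, from -1.18 to -3.37, a log2 ratio of -2.19. In CRL1506 + LPS it had -1.41.

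Of 35 chaperones and unfolded protein response genes of the endoplasmic reticulum, 8 were at least 2-fold higher (3 to 10 over the scalings) and 1 lower (1 to 3), with a median 0.33 above all genes (0.19 to 0.32). *Xbp1*, the factor spliced by IRE1, went from 4.92 to 6.23, a log2 ratio of 1.32 with 1.32 to 1.59 over 3 probes. *Dnajb9*, an XBP1 target, went from -0.21 to 1.98, a log2 ratio of 2.19. *Ero1l*, an oxidase of the same compartment, went from 3.49 to 5.05, a log2 ratio of 1.56. *Sdf2l1* and *Herpud1*, further targets of this response, had -0.22 and -0.34, neither past 2-fold. Of 33 ATF4 targets and tRNA synthetases, 4 were higher and none lower, but 8 were higher after the median shift, and none was higher and 1 lower after spike-in scaling. Their median was 0.32 above all genes (0.18 to 0.31). *Wars*, the tryptophanyl-tRNA synthetase that interferon-γ also induces, went from 4.60 to 6.01, a log2 ratio of 1.42 (0.88 after spike-in scaling). Of 42 NRF2 targets and antioxidant enzymes, 1 was higher (0 to 3) and 7 were lower (2 to 14), with a median -0.18 relative to all genes (-0.32 to -0.18). *Osgin1* went from 0.50 to -1.88, a log2 ratio of -2.39, and *Cbr3*, a carbonyl reductase, from 1.70 to 0.09, a log2 ratio of -1.61. *Hmox1*, the best known NRF2 target in macrophages, had -0.11 (-0.65 to 0.18), and *Slc7a11*, the cystine importer, had -1.23 on the probe used and -0.12 on another. Of 21 heat shock protein genes, none was at least 2-fold higher (0 to 2 over the scalings) or lower (0 to 3).

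*Slc40a1*, the iron exporter ferroportin, went from 1.36 to -0.39, a log2 ratio of -1.75 (-0.43 in CRL1506 + LPS). *Cp*, which codes for ceruloplasmin, a ferroxidase, went from -1.32 to 2.88, a log2 ratio of 4.20, and is named after its value was seen. *Tfrc*, the transferrin receptor, had -0.26 (-0.80 to 0.03). Of 29 iron and metal genes, 4 were at least 2-fold higher (4 to 8 over the scalings) and 1 lower (1 to 4), with a median 0.10 above all genes (0.06 to 0.09). Of 58 lysosomal genes, 2 were higher (0 to 6) and 2 lower (1 to 8), with a median 0.14 above all genes (0.05 to 0.14). *Ctsk*, a cathepsin of bone resorption, went from -3.30 to -1.76, a log2 ratio of 1.54, and *Ctsh* from 1.88 to 0.45, a log2 ratio of -1.43, while *Ctsb* and *Ctsd*, the abundant cathepsins, had 0.31 (-0.22 to 0.61) and -0.11 (-0.64 to 0.19).

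The remaining groups differed in their shares past 2-fold, beside 9.96% higher and 8.4% lower among all genes compared. Rab GTPases and histone and DNA modifying enzymes lay below both shares. Autophagy genes lay below the share of higher genes, while their 7.5% lower is near that of all genes. Tumor necrosis factor ligands, matrix proteases and osteoclast genes lay above both, with few genes per list. Integrins and adhesion molecules lay near both shares, with 10.7% higher and 7.14% lower. The transporters exceeded the share of higher genes only, and LXR targets that of lower genes only. Of 11 tumor necrosis factor ligands, 3 were higher (1 to 3 over the scalings) and 1 was lower (0 to 4), with a median -0.10 relative to all genes (-0.11 to 0.08). The lower one was *Ltb*, which shapes lymphoid tissue, with a log2 ratio of -1.10. *Tnfsf10*, which codes for the death ligand TRAIL, had 2.43 on the probe used but 0.04 on another. Of 28 integrins and adhesion molecules, 3 were higher (1 to 7) and 2 lower (0 to 6), with a median -0.11 relative to all genes (-0.15 to -0.08), and *Icam1*, a ligand of leukocyte integrins, had -0.10 (-0.63 to 0.20 over the scalings). *Itgb7*, a chain of gut-homing integrins, went from 4.84 to 6.09, a log2 ratio of 1.25 that was 0.71 after spike-in scaling. Matrix proteases and the plasminogen system, with *Mmp13* and *Plau* above, had 6 of 23 higher (2 to 6) and 4 lower (1 to 6), with a median 0.19 above all genes (0.14 to 0.36). Of 14 osteoclast genes, 3 were higher (1 to 3) and 2 lower (1 to 5), with a median 0.07 above all genes (0.04 to 0.06). *Tnfrsf11a*, which codes for the receptor RANK, had 1.34, with 0.42 to 1.34 over 3 probes. Of 20 LXR targets and cholesterol efflux genes, none was higher (0 to 1) and 4 were lower (3 to 8), with a median -0.30 relative to all genes (-0.36 to -0.26), while the efflux pumps *Abca1* and *Abcg1* had -0.31 and 0.69, both under 2-fold. Of 35 sugar, amino acid and monocarboxylate transporters, 5 were higher (2 to 6) and 2 lower (0 to 9), with a median 0.08 above all genes (-0.02 to 0.06). *Slc16a1*, the lactate carrier MCT1, went from 1.71 to 3.1, a log2 ratio of 1.39. Of 40 autophagy genes, 1 was higher (0 to 5) and 3 were lower (1 to 3), with a median -0.03 relative to all genes. Of 49 Rab GTPases of vesicle traffic, 3 were higher (1 to 10) and 1 lower (0 to 8), with a median 0.15 above all genes (0.11 to 0.15). Of 65 histone and DNA modifying enzymes, 2 were higher (2 to 8) and 4 lower (2 to 13), with a median 0.06 above all genes (-0.02 to 0.06).

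The machinery that every cell uses served as a background. None of 80 cytosolic ribosomal protein genes and none of 34 proteasome subunits passed 2-fold in either direction, under the main scaling or any of the 7 others. Their medians were 0.10 and 0.13 above all genes, and the former changed sign to -0.05 under the scaling that gave the lowest value. Of 78 mitochondrial ribosomal proteins, 1 was lower (0 to 11 over the scalings), *Mrpl18*, with -1.2. Of 66 spliceosome and hnRNP genes, 1 was higher (0 to 4) and 1 lower (0 to 9), *Prpf39* with 1.51 and *Prpf19* with -1.0.

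The lowest ratios over all genes fell on genes of several functions. *Dmpk*, a kinase, went from 2.24 to -2.51, a log2 ratio of -4.75 (-2.67 in CRL1506 + LPS). *Prkar2b*, a regulatory subunit of protein kinase A, went from 0.82 to -2.79, a log2 ratio of -3.61 (-0.55 in CRL1506 + LPS). *Asb2*, part of a ubiquitin ligase, went from -0.28 to -3.64, a log2 ratio of -3.36. *Fhod1*, a formin that organises actin, had -2.88, and *Igfbp4*, which binds insulin-like growth factors, -2.97. Of the 15 lowest, 3 were histone genes and 1 was *Tk1*. By a stricter reading, 317 genes were higher and 323 lower by at least 2-fold under the main scaling and each of the 7 others, with even spots, values well above background on both arrays and all probes in 1 direction.

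The promoters of these groups were searched for 10 motifs on both strands, taken as letters in which N is any base. They were the ISRE (GAAA, any 2 bases, GAAA), the NF-κB site (GGGA, any 2 bases, TTCC), the AP-1 site (TGACTCA), the CRE (TGACGTCA), the core of the hypoxia response element (TACGTGC), the antioxidant response element (TGACNNNGC), the E2F site (TTTGGCGC), the CHR of mitotic genes (TTTGAA), the sterol regulatory element (TCACNCCAC) and the CCAAT box (CCAAT). A promoter of 300 bases was found for 19483 of the array's gene symbols. The ISRE was present in 3.49% of all 27025 promoters, in 3.39% of the promoters of genes compared, in 10.5% (118 of 1123) of those of genes at least 2-fold higher and in 2.24% (22 of 982) of those of genes at least 2-fold lower. It was in 43.6% (24 of 55) of the interferon-stimulated genes and in 10 of 10 GTPases with a promoter. Without the genes of either interferon list, the share among higher genes was 8.33% (89 of 1069). Within the interferon-stimulated genes, the 24 with the motif had a median log2 ratio of 1.66 and the 31 without it 1.90. The NF-κB site was in 1.43% of all promoters, 1.59% of those of genes compared and 1.96% of those of higher genes. The AP-1 site was in 5.17%, 4.2% and 6.86%, in the same order.

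The CHR was in 18.1% of all promoters and in 64.7% (44 of 68) of those of mitosis genes, and the CCAAT box in 37.9% of all and in 87.5% (42 of 48) of those of histone genes. Neither motif was particular to its list. The CHR was in 47.9% of histone and 9.8% of replication promoters. The CCAAT box was in 81.5% of sterol and fatty acid synthesis promoters, 72.1% of mitosis promoters and 60.8% of replication promoters. The E2F site was in 0.54% of all promoters, in 0.92% of those of genes compared and in 15.7% (8 of 51) of those of replication genes. Mitosis genes with the CHR had a median log2 ratio of -0.99 and those without it -0.84. Among all genes at least 2-fold lower, 16.2% held the CHR and 42.3% the CCAAT box. Outside the replication, mitosis and histone lists these shares were 13.3% and 39.1%, next to 13.5% and 38.9% of all genes compared. Of the letters searched, none contains those of another motif.

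**Figure D5:**
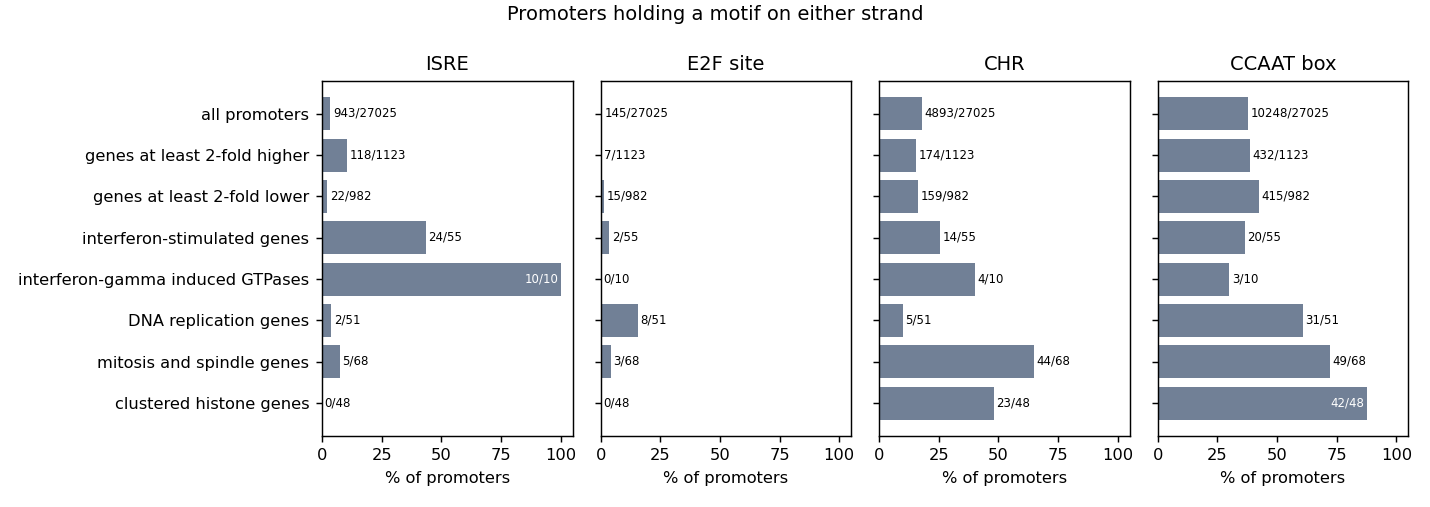
Share of promoters (x axis, percent) that hold the ISRE, E2F site, CHR or CCAAT box on either strand, for all 27025 promoters, for genes at least 2-fold higher or lower in CRL1505 + LPS, and for 5 lists, with the number of promoters beside or in each bar. The ISRE is in 10 of 10 GTPase promoters and in 3.49% of all, and the CHR is in 44 of 68 promoters of mitosis genes.

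Markers of other cell types were read to check the purity of the line. Of 10 fibroblast and endothelial markers and 8 epithelial markers, none was well above background on both arrays. The fibroblast and endothelial markers *Cdh5*, *Col1a2* and *Tek* were well above background on the CRL1505 + LPS array only, with log2 ratios of 1.57, 1.81 and 2.09 as bounds (1 to 3 of them past 2-fold over the scalings), the last on a spot of uneven brightness and named after its value was seen. The other 7 were on neither array. *Epcam*, an epithelial marker, was well above background on the LPS array only, with a log2 ratio of -1.93 as a bound, and the other 7 on neither. The part of such cells in the results was not tested. Of 10 T and NK cell markers, 4 were, and *Cd3g*, *Cd8a* and *Tcra* were well above background on neither array. Of 6 B cell markers, 3 were well above background on both arrays, and *Cd79a* on neither. Of 9 neutrophil and mast cell markers, 4 were. *Lck*, a kinase of T cells, went from 1.63 to 3.09, a log2 ratio of 1.46, while *Cd3e* had -0.16 (-0.70 to 0.13) and *Elane*, the neutrophil elastase, -0.29 (-0.83 to 0.00).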

How the data were processed

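RNA of RAW macrophages was hybridised in 1 colour (Cy3) to mouse expression arrays, 1 array per condition, with probes of 60 bases. The authors deposited for each array spot intensities written by Feature Extraction, which per the file headers was version 12.0.3.1, with background subtracted and without scaling between arrays, and probe positions on mm9. A further table, also from the authors, holds log2 values normalized between arrays, whose settings are not given in the sources used here. The submitters' processing notes name limma. Here the 75th percentile of an array's gene spots was subtracted from its log2 processed signals, outlier spots were left out, repeated spots averaged, and a gene was represented by its brightest probe with values on both arrays. A gene was counted at 2-fold or more. The t-test of the methods needs replicates and was not run.

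Members and lists were chosen with earlier results of these data known. Genes named are those written for each of 53 lists whatever their value, up to 4 further members per list with the largest ratio past 2-fold, and the 15 highest and 15 lowest genes that were well above background on both arrays, on even spots and past 2-fold under every scaling, with exceptions marked. Some genes that this rule names are not reported here. A spot was called uneven where its mean pixel exceeded its median pixel by over 0.2 (log2), or where 5 of its 20 nearest spots did. Alternatives were 7 scalings, normalizations or background corrections (75th percentile over probes detected on both arrays, median, spike-in, quantile, cyclic loess, normexp with an offset of 50, the deposited table), the mean over probes, no filter on dim probes, use of probes well above background on both arrays alone, outlier spots kept, uneven spots left out, and thresholds of 1.5 and 4. Array numbers limit the precision. Python 3.11.15 with pandas 2.3.3 and R 4.3.3 with limma 3.58.1 were used, and the procedure was tested on simulated data. Promoters are from RefSeq (GRCm38.p6).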

Additional observations from a re-analysis of the deposited data

Results flagged for a closer look

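*Cx3cl1*, the ligand of CX3CR1, passed 2-fold in opposite directions with the strains, with a log2 ratio of 1.32 in CRL1505 + LPS and of -1.52 in CRL1506 + LPS, the latter a bound because the probe was not well above background there. The difference was not tested, as each condition has 1 array and both ratios use the same LPS array.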

How the results depend on the processing

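The counts of 1555 higher and 1312 lower genes became 2426 and 760 after the median shift, 778 and 3362 after spike-in scaling and 992 and 777 in the deposited log2 table. Lower genes numbered 673 after the normexp background correction, 3673 without a filter on dim probes and 868 with only probes well above background on both arrays. A threshold of 1.5-fold gave 2983 and 2686 genes, and 4-fold gave 470 and 241. The share of higher genes among the calls, 54.2%, became 45.3% with the 75th percentile over probes detected on both arrays, 76.2% after the median shift, 18.8% after spike-in scaling, 56.8% after quantile normalization, 61.1% after cyclic loess, 63.5% after normexp, 56.1% in the deposited table, 37.9% without the filter and 52.2% with outlier spots kept. No named gene past 2-fold changed its direction. Under the alternatives other than thresholds, 32 list medians relative to all genes moved by at least the spread between probes (0.23) and 602 moved by less. No paired analysis was possible because each condition has 1 array, and for the same reason no array could be left out.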

Other observations

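Genes were also grouped by the letters before the first digit of their symbol, which needs no list and gave 100 families with at least 15 genes compared. The families below were picked after their values were seen. Among the kinesin genes (*Kif*), 11 of 33 passed 2-fold downwards and 3 upwards in CRL1505 + LPS, and among centrosomal protein genes (*Cep*) 7 of 38 were lower and 0 higher, beside 37 of 53 histone genes. Dual-specificity phosphatase genes (*Dusp*) had 6 of 17 higher and 3 lower. Tripartite motif genes (*Trim*), a family with many interferon-induced ubiquitin ligases, had 10 of 44 higher and 9 lower, and so no common direction. Zinc finger genes (*Zfp*) had 17 of 317 higher and 15 lower, and ribosomal protein genes of the large subunit (*Rpl*) 0 of 51 in either direction.

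Olfactory receptor genes (*Olfr*) had 43 of 183 higher and 25 lower, a larger share than the 9.96% and 8.4% of all genes. Their median log2 signal was -4.03, and 58 of these calls had 1 side not well above background. Vomeronasal receptor genes (*Vmn*), with 10 of 30 higher and 3 lower, had a median log2 signal of -3.98 and 10 calls of that kind. How far such dim signals reflect transcripts was not tested.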
